A study of Homo sapiens with 6 samples.

Results

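Of the 53603 promoter windows counted in the study, 975 carry the label SRP_RNA and 2 the label BC200, and these 977 windows are described here. Their labels name the 7SL and Alu lineage of RNA polymerase III genes, and the windows were picked out by label alone. The label rule itself uses no count, but it was set, with the separation of the strongly read chromosome 14 windows, when earlier results of these data were known. The cells were HEK293T, an established line from human embryonic kidney, collected 48 h after transfection with siRNA at 150 nM, either a control or one that targets SSB, the gene of the RNA-binding protein La. What was sequenced was their small RNA. Each arm had 3 libraries, which the design text calls biological replicates. The p-values set a difference between the arms against the spread between these libraries. Both arms received an siRNA with the same lipid reagent, so no untreated cells enter the comparison. A count is a number of reads in a window of 400 bases, from 150 bases before to 250 bases after an annotated start site. All windows have this same length but can hold unlike lengths of gene, and counts were not adjusted for this. A level here is therefore reads per 400 bases of window and not an amount of RNA.

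7SL RNA is the RNA scaffold of the signal recognition particle, which binds signal peptides as they leave the ribosome and takes the ribosome to the endoplasmic reticulum. Its 5′ and 3′ ends fold into the Alu domain, which binds the proteins SRP9 and SRP14 and pauses translation, while its middle forms the S domain, which holds SRP19, SRP54, SRP68 and SRP72. RNA polymerase III transcribes 7SL and ends it in a run of U, the 3′ end to which La binds on new transcripts of this polymerase. The human genome holds many 7SL copies made by retrotransposition, and Alu repeats descend from 7SL. BC200 RNA, from the gene BCYRN1, is a primate transcript with an Alu-like 5′ part that also binds SRP9 and SRP14, known from neurons and from tumour cells.

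The 977 windows fell into 3 sets. On chromosome 14, 4 windows lay over RN7SL1 and RN7SL2, the genes of 7SL RNA, with 2 overlapping windows on each gene. A further 971 SRP_RNA windows are called dispersed here, including the other 9 SRP_RNA windows of chromosome 14, and 2 windows were labelled BC200. None of the 977 windows was matched to RN7SL3 by its GENCODE position, so no counts are given for it. GENCODE names a 7SL gene in 90 of the 971 dispersed windows, which gave 89 named copies. The other dispersed windows are given by number alone, and whether they hold a 7SL copy was not tested. Of the 680 RN7SL genes of GENCODE, 80 had an SRP_RNA window.

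RN7SL1 (chr14:49586580-49586878, plus strand) and RN7SL2 (chr14:49862550-49862849, minus strand) are near-identical. By the GENCODE release 29 transcripts (GRCh38), RN7SL2 differs from RN7SL1 by 4 substitutions and by 1 added base at its end, and the 2 are 98.7% identical over 299 aligned bases. Of the 270 runs of 30 bases in RN7SL1, 198 also occur in RN7SL2 (73.3%). A short read from most of either gene therefore matches both, and values for one of them alone are uncertain.

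BCYRN1 (chr2:47335315-47335514, plus strand) has less in common with these genes. It shares no run of 20 or 30 bases with RN7SL1 or RN7SL2, and 30 of its 200 bases lie in runs of at least 12 shared with RN7SL1. The stretch GTTCNANNC, a form of the B box of internal RNA polymerase III promoters, was found in BCYRN1 and in neither RN7SL1 nor RN7SL2 on either strand. It was in 7.5% of the 680 RN7SL transcripts of GENCODE (4.12% on the other strand). The run TTTT, a form of the termination signal of this polymerase, was in 16.0% of the RN7SL transcripts (81.6% on the other strand). RN7SL5P had it, at a site past the part it shares with RN7SL1, and RN7SL1, RN7SL2, RN7SL4P, RN7SL674P and BCYRN1 did not on the transcribed strand. The search covered the annotated transcripts alone, so a TTTT just past their ends would not be seen. These matches describe letters and not sites in use.

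Reads were concentrated in a few of the 977 windows. The 4 windows on chromosome 14 held 20420 of the 28178 reads of the 6 libraries, with reads in overlapping windows counted in both. The dispersed windows held 7729 and BC200 held 29. No read was found in 666 of the 977 windows (68.2%), against 59.3% of all windows in the table. A further 292 windows had from 1 to 9 reads in all. The start-site windows of RN7SL1 and RN7SL2 took 0.0487% ± 0.00237 of a library in control cells and 0.0471% ± 0.00279 after La knockdown (SD, n = 3). For the dispersed windows these shares were 0.0374% ± 0.00503 and 0.0383% ± 0.00338 (SD, n = 3). In both of these sets the arms differed by less than the spread between libraries. The BC200 share was 0.000101% ± 4.12e-05 in control cells and 0.000185% ± 5.22e-05 after La knockdown (SD, n = 3). That difference was larger than either SD, rested on 2 to 8 reads a library, and came from libraries whose ranges overlapped.

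Library totals ran from 3066299 to 4105806 counts. Of the 2 windows at start sites of SSB, PCG_40419 had 4, 3 and 3 counts in control cells and 1, 0 and 0 after La knockdown, and PCG_12982 had 0, 0 and 1 and then 0, 2 and 0. Both were too thinly read for the edgeR model, and they count small RNA at a promoter and not the SSB mRNA. Between the arms 1064 windows had enough reads to be tested, and 58 were called (5.45%), 7 higher (0.658%) and 51 lower (4.79%), by edgeR's quasi-likelihood test at a Benjamini-Hochberg adjusted p under 0.05. With upper quartile factors the split was 58 higher and 36 lower, and with DESeq2 it was 23 higher and 76 lower.

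Of the 977 windows, 12 passed the filter on low counts, namely the 4 on chromosome 14 and 8 dispersed ones. None of the 12 was called in either direction (edgeR, against 5.45% of all windows tested). None had an unadjusted edgeR p under 0.05, against 254 of all 1064 windows. DESeq2 also called none of the 12, against 99 of the 1064. Their log2 fold changes, La knockdown against control, ran from -0.37 to 0.57, with adjusted p from 0.265 to 0.952. The median was 0.08 over the 12 and -0.05 over all 1064 windows. The distance between these medians, 0.14, depended on the libraries: it was 0.046 without La knockdown replicate 1, 0.059 without control replicate 2 and 0.17 without La knockdown replicate 2. Without a filter this distance was 0, but that fit took in 311 of the 977 windows and 21830 windows in all. The 12 also include overlapping windows on the same gene. Among the 977 windows 0 had an adjusted p under 0.05 in the authors' deposited table, against 0.153% of all windows, and every one of the 977 was listed there with an adjusted p of 1.

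By window counts RN7SL1 was the most read. Its start-site window (SRP_RNA_51240, chr14:49586431-49586830) had 1224, 898 and 1028 counts in control cells (replicates 1 to 3) and 884, 844 and 947 after La knockdown (replicates 1 to 3). Scaled to library size with TMM factors, as counts per 1000000 (CPM), these were 319, 266 and 266 CPM in control cells and 317, 249 and 298 after La knockdown. Replicate 1 was the highest library in either arm, and the ranges of the arms overlapped. The mean CPM was 284 ± 30.9 and 288 ± 35.3 (SD, n = 3), and the fitted difference on the log2 scale was 0.02 with a standard error of 0.23 (edgeR adjusted p = 0.952). The 95% interval ran from -0.49 to 0.53, a fold between 0.710 and 1.45, so a change within that range in either direction remains possible. This interval is not adjusted for the number of windows tested, so it is not the limit of what could be called. In GENCODE, RN7SL1 lies within the span of RPS29, on the opposite strand, and its start-site window touches an RPS29 exon while its second window holds none.

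By window counts RN7SL2 was the next most read gene, though reads that match both genes make this order uncertain. Its start-site window (SRP_RNA_51241, chr14:49862593-49862992) had 197, 184 and 197 CPM in control cells and 221, 193 and 184 after La knockdown. The La knockdown arm held both the highest and the lowest of the 6 libraries, 184 in La knockdown replicate 3 lying just under 184 in control replicate 2. On the log2 scale the fitted change was 0.05 (SE 0.22, 95% interval from -0.45 to 0.54, edgeR adjusted p = 0.887). Over the 6 libraries the coefficient of variation of CPM was 6.91% for this window and 10.4% for the RN7SL1 start-site window.

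**Figure D1:**
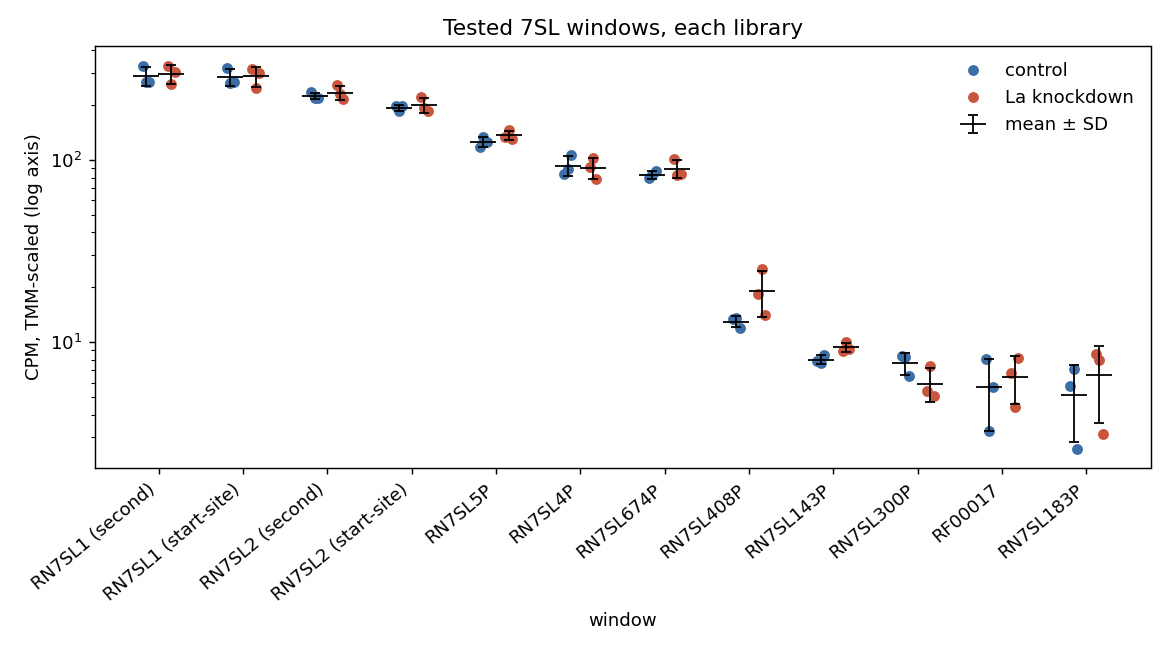
CPM (TMM-scaled, log axis) of the 12 tested 7SL windows in each of the 6 libraries, with the mean and SD of each arm (n = 3). The 4 windows of RN7SL1 and RN7SL2 and those of RN7SL5P, RN7SL4P and RN7SL674P lie at 78.4 CPM or more with arms that overlap, and the other 5 lie at 25.04 CPM or less.

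The second windows start 34 bases inside each gene and run past its 3′ end, by 135 bases for RN7SL1 and 134 for RN7SL2, so they cover the last bases that the start-site windows miss. The second window of RN7SL1 (SRP_RNA_52783, chr14:49586614-49587013) had 30, 6 and 4 more counts than the start-site window in control cells and 30, 36 and 13 more after La knockdown. That is 1.17% ± 1.12 and 3.01% ± 1.48 of the start-site count (SD, n = 3). Each such difference is a net one, of reads that only the second window reached less those that only the start-site window reached. For RN7SL2 the second window (SRP_RNA_52784, chr14:49862416-49862815) had 147, 117 and 84 more counts in control cells and 97, 124 and 96 more after La knockdown, or 16.4% ± 4.68 and 17.0% ± 1.71 of the start-site count (SD, n = 3). The log2 ratio of the second to the start-site window differed between the arms by 0.026 for RN7SL1 (exact permutation test, two-sided p = 0.2, adjusted over both genes 0.4) and by 0.0079 for RN7SL2 (p = 0.9, adjusted 0.9). These 2 ratios were chosen after the values had been seen, and an exact test of 3 against 3 libraries cannot go below 0.1. The fitted log2 fold changes of the second windows were 0.04 for RN7SL1 (SE 0.23, edgeR adjusted p = 0.904) and 0.06 for RN7SL2 (SE 0.22, adjusted p = 0.868).

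**Figure D2:**
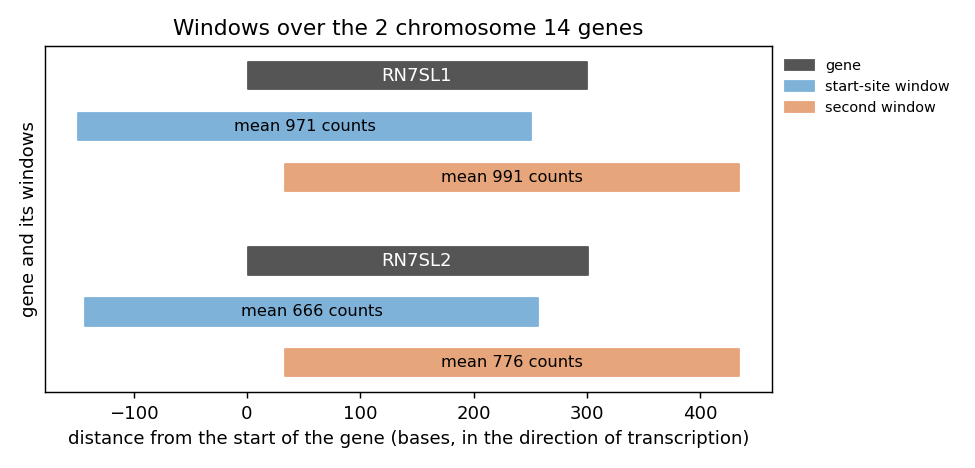
Position of the 2 windows over RN7SL1 and over RN7SL2, as the distance in bases from the first base of the gene in the direction of transcription, with the mean count of each window over the 6 libraries. The second window has 991 against 971 counts over RN7SL1 and 776 against 666 over RN7SL2.

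Among the dispersed copies 3 stood apart in reads. RN7SL5P, RN7SL4P and RN7SL674P held 6296 of the 7729 reads of dispersed windows (81.5%), and outside the 8 tested windows only 550 reads were left. The ninth dispersed window, of RN7SL521P, had 19 reads in all against 117 for the last one tested. These 3 copies also held the longest runs identical to the chromosome 14 genes. RN7SL5P (chr9:9442060-9442380, plus strand) holds a run of 209 bases identical to RN7SL1 (bases 27 to 235), RN7SL4P (chr3:15738515-15738809, plus strand) one of 192 bases identical to RN7SL2 (bases 11 to 202) and RN7SL674P one of 83 bases identical to RN7SL1 (bases 40 to 122). In the other copies the longest such run in the window was at most 38 bases, with a median of 22 over all 89. Shared runs of 40 bases occurred in these 3 of 89 copies and in no other. Runs of 20 bases were shared by 62 of the 89 (69.7%), including 27 of the 46 copies with no read (58.7%). How the authors placed reads that match several positions is not given in the sources used here, so the part of reads from RN7SL1 and RN7SL2 in these 3 windows was not tested.

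**Figure D3:**
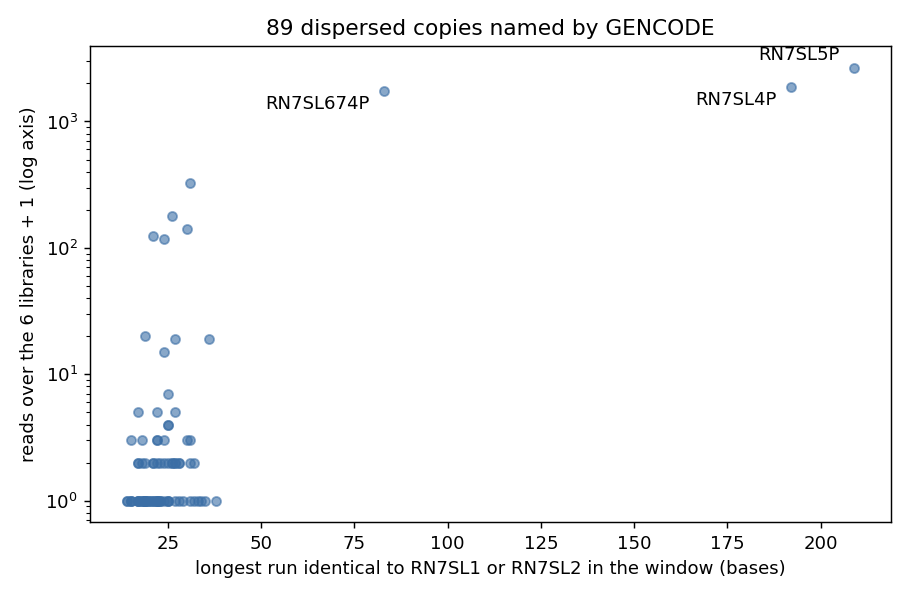
Reads over the 6 libraries (plus 1, log axis) of the 89 dispersed copies named by GENCODE, against the longest run of bases in the window that is identical to RN7SL1 or RN7SL2. The copies with runs of 83, 192 and 209 bases hold 1745, 1883 and 2668 reads, and no copy with a shorter run has more than 324.

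With gaps counted as differences, likeness over the whole gene did not set these 3 apart. RN7SL5P was 85.5%, RN7SL4P 85.6% and RN7SL674P 81.9% identical to RN7SL1 by this measure. Their alignments held, in the same order, 15, 24 and 28 substitutions and 32, 20 and 26 gap positions. Likeness by substitutions alone was not compared over the 89 copies. With gaps counted, the 89 copies had a median of 81% and a highest value of 88.0%. The highest value was that of RN7SL408P (chr6:134133573-134133868, plus strand), whose longest identical run was 31 bases.

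In RN7SL5P (SRP_RNA_52283, chr9:9442024-9442423, in an intron of PTPRD on the opposite strand) the libraries had 117, 134 and 126 CPM in control cells and 133, 146 and 131 after La knockdown. Control replicate 1 was the lowest library and La knockdown replicate 2 the highest, and the arms overlapped at the second control library. On the log2 scale the fitted change was 0.12 (SE 0.22, 95% interval from -0.37 to 0.61, edgeR adjusted p = 0.720). RN7SL4P (SRP_RNA_53130, chr3:15738385-15738784, in an intron of ANKRD28 on the opposite strand) had 83.8, 89.0 and 106 CPM in control cells and 91.8, 102 and 78.4 after La knockdown. Here the highest library was a control and the lowest a La knockdown one, and the fitted log2 change was -0.04 (SE 0.24, edgeR adjusted p = 0.921). RN7SL674P (SRP_RNA_52346, chr2:11584623-11585022, in an intron of GREB1 on the same strand) had 79.1, 82.2 and 86.6 CPM in control cells and 101, 82.8 and 84.1 after La knockdown. La knockdown replicate 1 was the highest and the other 5 libraries lay close together, with a fitted log2 change of 0.11 (SE 0.23, edgeR adjusted p = 0.748).

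The 5 other tested copies had means under 20 CPM in either arm. RN7SL408P (SRP_RNA_52150, chr6:134133423-134133822) had 13.3, 13.6 and 11.9 CPM in control cells and 18.3, 25.04 and 14.2 after La knockdown. Every La knockdown library lay above every control library, with La knockdown replicate 2 well above the other 2 of its arm. On the log2 scale the fitted change was 0.57 (SE 0.32, 95% interval from -0.13 to 1.27, edgeR adjusted p = 0.265), and without La knockdown replicate 2 it was 0.31 (edgeR adjusted p = 0.623). RN7SL143P (SRP_RNA_52848, chr16:58770374-58770773) also had arms that did not overlap, with 7.83, 7.69 and 8.55 CPM in control cells and 8.96, 10.0 and 9.14 after La knockdown. Its fitted change on the log2 scale was 0.22 (SE 0.30, edgeR adjusted p = 0.616). These were 2 of the 12 windows, while the arms did not overlap in 32% of all 1064 windows tested.

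RN7SL300P (SRP_RNA_53141, chr3:153199768-153200167) had the lowest fitted value of the 12 with all libraries. Its libraries held 8.35, 8.28 and 6.48 CPM in control cells and 5.38, 7.37 and 5.04 after La knockdown, and La knockdown replicate 2 lay above control replicate 3. On the log2 scale the fitted change was -0.37 (SE 0.33, edgeR adjusted p = 0.451), and without La knockdown replicate 2 it was -0.58. A copy that GENCODE names by its Rfam family, RF00017 (SRP_RNA_51654, chr11:118994184-118994583), ran from 3.25 to 8.19 CPM, with its lowest library in control cells and its highest after La knockdown. RN7SL183P (SRP_RNA_53380, chr6:87845500-87845899) ran from 2.59 to 8.60 CPM in the same way. Their log2 fold changes were 0.17 (SE 0.41, edgeR adjusted p = 0.793) and 0.36 (SE 0.48, edgeR adjusted p = 0.619). Both moved when 1 library was left out: RN7SL183P had 0.041 with control replicate 3 left out and 0.63 with control replicate 2 left out, and RF00017 ran from -0.11 to 0.51 over the fits that left out 1 library. GENCODE places none of these 5 windows within a protein-coding gene.

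The other 963 dispersed windows were too thinly read to be compared one by one. In them and in BC200 the 6 libraries held 84, 79 and 106 reads in control cells and 94, 137 and 79 after La knockdown, so the arms overlapped. No library had more than 8 reads in any such window. Of the 971 dispersed windows 537 lie within the span of a protein-coding gene (55.3%), and so did 3 of the 8 tested ones.

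BC200 RNA was barely read. The window over BCYRN1 (BC200_51350, chr2:47335164-47335563) had 4, 2 and 5 counts in control cells and 4, 8 and 6 after La knockdown. The arms overlapped, and 29 reads in all were too few for the filter. Fitted without a filter, the fitted log2 change was 0.68 (SE 0.73, 95% interval from -0.74 to 2.10, edgeR adjusted p = 0.581), and in the authors' deposited table it was 0.65 with an adjusted p of 1. The second BC200 window (BC200_52987) had no read in any library, and a count of 0 allows up to 3 counts per library, or 0.731 to 0.978 CPM, for counting error alone. No change of BC200 was detectable at this depth.

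**Figure D4:**
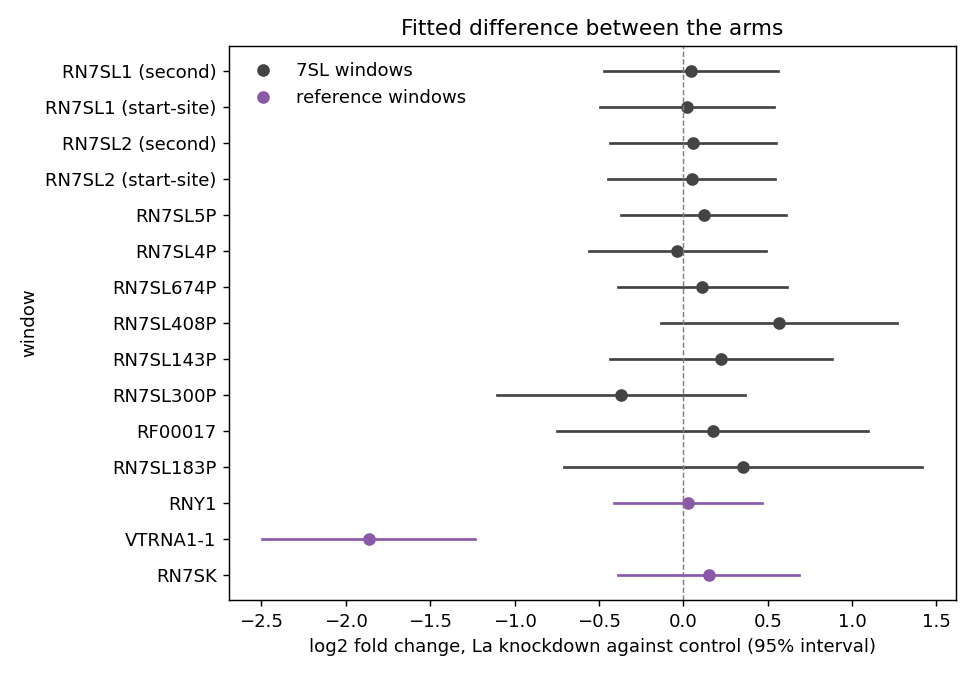
Log2 fold change, La knockdown against control, of the 12 tested 7SL windows and of 3 reference windows, with 95% intervals from the edgeR fit (n = 3 per arm). The intervals of the 12 include 0, and that of the vault RNA gene VTRNA1-1 runs from -2.50 to -1.23.

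Ratios of 2 windows within a library do not depend on how libraries are scaled. RN7SL1 was set against 3 other RNA polymerase III genes, RN7SK (the RNA that holds P-TEFb inactive), RNY1 (a Y RNA bound by Ro60) and VTRNA1-1 (a vault RNA), as well as RN7SL2 and BC200, which made 5 ratios. The log2 ratio of RN7SL1 to VTRNA1-1 was -1.12, -1.06 and -0.81 in control cells and 0.84, 1.16 and 0.71 after La knockdown. RN7SL1 was thus the less read of the pair in each control library and the more read in each La knockdown library. The means differed by 1.90 (SE 0.17, a 3.73-fold change of the ratio), with an exact permutation p of 0.1, the smallest that 3 against 3 libraries can give, and 0.333 after Benjamini-Hochberg adjustment over the 5 ratios. VTRNA1-1 itself had a fitted log2 change of -1.86 (edgeR adjusted p = 0.0103). With La knockdown replicate 1 left out, 0 windows were called by edgeR, VTRNA1-1 included, while 175 had an unadjusted p under 0.05.

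For the other 4 ratios the arms overlapped. The log2 ratio of RN7SL1 to RN7SK was 0.55 ± 0.11 in control cells and 0.43 ± 0.09 after La knockdown (SD, n = 3, exact permutation p = 0.2, adjusted 0.333). That of RN7SL1 to RNY1 was -5.00 ± 0.32 and -5.02 ± 0.14 (SD, n = 3, exact permutation p = 0.9). RNY1 was the more read of the pair in every library. The log2 ratio of RN7SL2 to RN7SL1 was -0.55 ± 0.13 and -0.53 ± 0.16 (SD, n = 3, exact permutation p = 0.7, adjusted 0.875). By window counts RN7SL1 was the more read in each of the 6 libraries. How reads that match both genes were placed is not given in the sources used here, so this ratio and order are uncertain. The log2 ratio of BC200 to RN7SL1 was -8.04 ± 0.47 and -7.15 ± 0.49 (SD, n = 3), a difference of 0.89 that rests on at most 8 reads a library (exact permutation p = 0.2, adjusted 0.333).

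**Figure D5:**
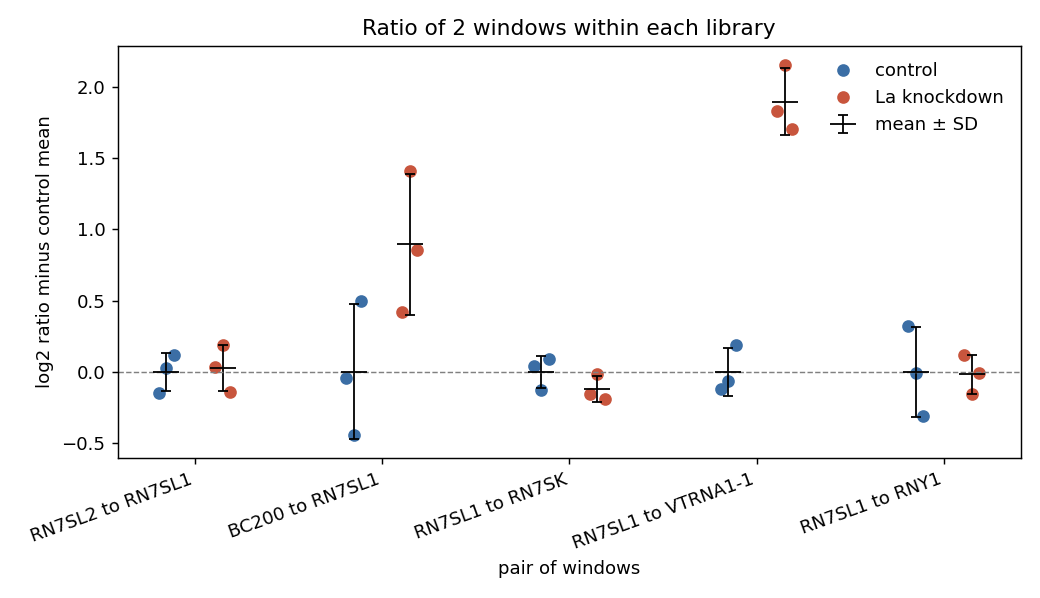
Log2 ratio of the counts of 2 windows in each library, less the control mean of that ratio, with the mean and SD of each arm (n = 3). The La knockdown libraries lie above all control libraries for RN7SL1 to VTRNA1-1, by 1.90 on average, and overlap them for the other 4 ratios.

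The proteins that work with 7SL RNA were examined at their own promoter windows. A list of 14 genes held SRP9, SRP14, SRP19, SRP54, SRP68 and SRP72 of the particle, SRPRA and SRPRB of its receptor, and SEC61A1, SEC61A2, SEC61B, SEC61G, SEC62 and SEC63 of the channel through which new proteins pass. They had 21 windows, and none passed the filter on low counts. SRP9, the most read, had 1, 2 and 2 counts in control cells and 4, 2 and 2 after La knockdown, and SRP14 had 1, 1 and 1 and then 3, 2 and 0. Small RNA at these promoters was therefore too rare for a comparison.

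Over the 6 libraries, the 5 windows outside the 7SL and BC200 labels whose log2 CPM followed RN7SL1 most closely were a tRNA window (tRNA_52737, Pearson r = 0.906), 2 U1 snRNA windows (U1_52782 and U1_51207, r = 0.897 and 0.875), a lncRNA window (lncRNA_9661, r = 0.879) and an rRNA window (rRNA_53081, r = 0.879). They were picked as the highest of all windows tested over 6 points that share their libraries, and none of them was called between the arms (edgeR adjusted p from 0.555 to 0.821).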

How the data were processed

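Per the labels' protocols, the small RNA in 6 HEK293T libraries came from a mirVana PARIS extraction and was dephosphorylated, then phosphorylated by T4 polynucleotide kinase, ahead of NEBNext small RNA library preparation. The submitters' processing notes name Trim Galore, Bowtie2, bedtools, edgeR and GRCh38 (hg38). Versions, the use of strand and the placing of reads with several positions are not given in the sources used here. The authors deposited raw counts per window, from 3066299 to 4105806 per library, and a table of log2 fold changes, average log2 CPM, an F score, p-values and adjusted p-values, per the file headers.

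Windows were fitted on the whole table with edgeR 4.0.16 in R 4.3.3 (filterByExpr, TMM factors, quasi-likelihood test, Benjamini-Hochberg adjustment). Standard errors came from the fold change and the F statistic. The fit was tested on simulated data. Window starts were shifted by 1. Genes came from GENCODE release 29 by an overlap of at least 50 bases. Identities came from global alignment (Biopython 1.88), with gaps inside the alignment counted as differences. Ratios used a pseudocount of 0.5 counts and exact permutation tests. Figures used matplotlib 3.10.9. The windows named were those on RN7SL1 and RN7SL2, BC200, and the dispersed copies that passed the filter. Overlapping windows and near-identical genes can share reads. Members, lists and tests were chosen with earlier results of these data known. Alternatives were DESeq2 1.42.0, RLE and upper quartile factors, library size alone, a replicate block, identical rows collapsed, each library left out, and a filter at a mean of 20 counts or none at all. The sequences of these genes are not reported here.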

Additional observations from a re-analysis of the deposited data

How the results depend on the processing

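None of the 12 tested windows was called under any alternative that tested it (RN7SL183P fell outside the filter at a mean of 20 counts), and the lowest adjusted p, 0.0818, was that of RN7SL408P with upper quartile factors, where its log2 fold change was 0.88. Over all windows the 58 calls became 94 with upper quartile factors, 99 with DESeq2, 108 without a filter and 108 with the replicate block. They became 34 and 31 without control replicates 1 and 2, and 0, 36 and 119 without La knockdown replicates 1, 2 and 3. The fold changes near 0 changed sign with the scaling. With library size alone RN7SL1 had -0.054 (start-site) and -0.030 (second window) and RN7SL2 -0.035 and -0.024. With upper quartile factors these were 0.34, 0.37, 0.37 and 0.38. Without a filter they were -0.23, -0.21, -0.21 and -0.20, RN7SL5P had -0.14, RN7SL674P -0.14, RN7SL143P -0.029 and RF00017 -0.068, and in the authors' deposited table RN7SL1 had -0.24 at its start-site window. RN7SL4P turned to 0.033 (RLE factors), 0.033 (DESeq2) and 0.28 (upper quartile). The upper quartile setting put the all-window median at 0.26 in place of -0.05. The cause of the changes of sign was not tested under any setting. Over the fits that each left out 1 library, the fold change ran from -0.077 to 0.11 and from -0.057 to 0.15 for the windows of RN7SL1, from -0.058 to 0.070 and from -0.042 to 0.090 for those of RN7SL2, from -0.14 to 0.079 for RN7SL4P, from -0.010 to 0.15 for RN7SL674P, from 0.31 to 0.67 for RN7SL408P, from -0.58 to -0.30 for RN7SL300P, from 0.041 to 0.63 for RN7SL183P, from 0.055 to 0.15 for RN7SL5P, from 0.16 to 0.28 for RN7SL143P and from -0.11 to 0.51 for RF00017. The difference in log2 ratio then ran from -0.053 to 0.11 for RN7SL2 to RN7SL1, from -0.17 to 0.14 for RN7SL1 to RNY1, from 1.77 to 1.996 for RN7SL1 to VTRNA1-1 and from -0.026 to 0.027 for the windows of RN7SL2. With the second window of RN7SL1, chosen after the data had been seen, the ratio to RNY1 differed by 0.0095. Without the rRNA classes in the denominator, the difference in share moved from -0.00158 to 0.00916 percentage points for RN7SL1 and RN7SL2. It moved to 0.0116 for the dispersed windows and 0.000191 for BC200. On that scale the control and La knockdown SDs were 0.00959 and 0.0076 for RN7SL1 and RN7SL2, 0.0132 and 0.0167 for the dispersed windows, and 7.91e-05 and 0.00014 for BC200. Only the BC200 difference was larger than both its SDs. The replicate block gave 0 calls among the 12 windows, as did the fit without it, and a log2 fold change of 0.019 for the RN7SL1 start-site window. Replicate numbers are not stated to mark a shared batch. The deviations of same-numbered libraries from their arm's mean had correlations of 0.139, 0.23 and -0.459. With 3 libraries per arm these values cannot decide whether the libraries were paired. The number of reads limits all windows outside the 12.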
